A study of Mus musculus with 32 samples.

Results

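Excitatory synapses on dendritic spines carry a dense assembly of kinases, phosphatases and scaffold proteins under the membrane. Described here are 9 genes that encode such proteins, across the medulla and midbrain of mice with and without the cholecystokinin B receptor gene Cckbr. Every probe set of the array annotated with 1 of these 9 symbols was taken, with no filter on level, which gave 17 probe sets of the 22626 tested and 9 of 12393 genes. All 9 genes had at least 1 probe set. Nrgn, Camk2a, Camk2b, Dlg3 and Ppp1r1b had 1 each, and Camk4, Dlg4, Ppp3ca and Homer1 had 3 each. Probe sets of 1 gene are read from the same RNA and are not replicates. The sources used here do not say whether they read the same transcripts. For these 4 genes the probe set with the highest mean over all arrays is called the brightest.

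Calcium that enters a spine through glutamate receptors binds calmodulin, which switches on calcium/calmodulin-dependent kinases and the phosphatase calcineurin. Kinase and phosphatase act against each other on receptors and scaffolds, and this balance is central to synaptic plasticity, first worked out in hippocampus and cortex. Nrgn encodes neurogranin, a small postsynaptic protein that holds calmodulin when calcium is low. Camk2a and Camk2b encode the main brain subunits of calcium/calmodulin-dependent kinase II, and Camk4 encodes a related, largely nuclear kinase that acts on transcription. Ppp3ca encodes a catalytic subunit of calcineurin, and Ppp1r1b encodes DARPP-32, an inhibitor of protein phosphatase 1 that dopamine signalling regulates. Dlg4 and Dlg3 encode membrane-associated guanylate kinase scaffolds (PSD-95 is the product of Dlg4), and Homer1 encodes a scaffold that links metabotropic glutamate receptors to internal calcium stores. The label of kinases and scaffolds is therefore loose, since neurogranin, DARPP-32 and calcineurin are neither.

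Total RNA of 32 dissected samples was hybridised to 1 Affymetrix mouse expression array each. There were 8 groups of 4 arrays: medulla or midbrain of control or Cckbr knockout (KO) mice that had either a chronic constriction injury (CCI) or a sham operation. CCI places loose ligatures around a peripheral nerve and is used as a model of neuropathic pain. Per the series' design, both regions came from each of 16 animals, so the arrays of a group are different mice, and the p-values measure the spread between these arrays. Age, sex, strain and time after operation were not given in the sources used here. The labels call the KO mice mutants and do not describe the allele. The dissections are bulk tissue, in which fewer cells of a type and less RNA per cell cannot be told apart.

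The Cckbr probe set read 122 at the lowest, 162 at the median and 200.2 at the highest over the 16 control arrays, and -1.49, 9.92 and 24.1 over the 16 KO arrays, with no overlap. Median intensity per array ran from 91.1 to 100.1, and 0 pairs of arrays were identical. The regions matched their labels: 11 of 11 measured medullary and hindbrain genes, mostly Hox genes, were lower in midbrain, and 8 of 11 midbrain dopamine and collicular genes were higher. The KO sham medulla array 3 stood apart in cerebellar genes, whose summed intensity over 10 genes was 13446 there against a median of 6056 over the medulla arrays. The KO sham midbrain array 2 had the highest ratio of 3′ to 5′ signal for Actb, 1.60 on the log2 scale against at most 0.78 on the others, which is a sign of RNA quality. For some of the results that these arrays move, values without them are given as well.

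Nrgn lies on chr9:37544493-37552745 of the mouse build GRCm38.p6, Camk2b on chr11:5969629-6066357, and Dlg3 on chrX:100767411-100818410. These are the genes that were most clearly higher in midbrain, and their RefSeq promoter sequences in that build are shown because they moved in 1 direction between regions. Each sequence covers 250 bases before and 50 bases after a start site, on the gene's own strand, 5′ to 3′. Capitals mark GGGCGG (the GC box that Sp factors bind), TATAAA (the TATA box) and TGACG (the core of a cyclic AMP response element), on either strand. The promoters are at chr9:37552696-37552995 (minus strand) for Nrgn, chr11:6065699-6065998 (minus strand) for Camk2b, and chrX:100777021-100777320 and chrX:100774245-100774544 (plus strand) for Dlg3.
Nrgn: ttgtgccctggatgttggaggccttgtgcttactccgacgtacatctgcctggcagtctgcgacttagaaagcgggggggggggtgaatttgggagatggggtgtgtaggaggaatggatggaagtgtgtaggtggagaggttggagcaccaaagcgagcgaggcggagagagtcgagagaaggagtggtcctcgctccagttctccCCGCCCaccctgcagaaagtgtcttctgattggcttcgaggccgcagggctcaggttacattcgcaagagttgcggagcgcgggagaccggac
Camk2b: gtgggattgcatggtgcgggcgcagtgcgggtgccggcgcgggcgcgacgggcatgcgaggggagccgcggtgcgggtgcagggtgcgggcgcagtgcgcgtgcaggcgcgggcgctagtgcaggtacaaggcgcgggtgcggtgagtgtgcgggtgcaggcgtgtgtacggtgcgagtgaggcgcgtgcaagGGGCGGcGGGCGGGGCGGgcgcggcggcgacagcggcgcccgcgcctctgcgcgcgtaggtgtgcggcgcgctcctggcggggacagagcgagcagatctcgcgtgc
Dlg3, first listed start: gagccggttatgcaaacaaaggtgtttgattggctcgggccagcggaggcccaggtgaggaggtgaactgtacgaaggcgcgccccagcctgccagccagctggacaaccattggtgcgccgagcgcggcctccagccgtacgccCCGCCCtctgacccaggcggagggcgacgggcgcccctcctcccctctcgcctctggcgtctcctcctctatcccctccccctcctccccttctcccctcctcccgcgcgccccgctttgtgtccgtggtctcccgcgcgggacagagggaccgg
Dlg3, second listed start: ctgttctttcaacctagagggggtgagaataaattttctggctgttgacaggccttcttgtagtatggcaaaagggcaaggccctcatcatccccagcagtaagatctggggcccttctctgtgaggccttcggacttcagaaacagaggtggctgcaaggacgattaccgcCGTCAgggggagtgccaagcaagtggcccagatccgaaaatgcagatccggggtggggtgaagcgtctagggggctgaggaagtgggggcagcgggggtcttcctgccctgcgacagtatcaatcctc
The Nrgn window held 1 GC box, whose first base lies at -43 from the start site, Camk2b held 3, of which the last pair overlap, and Dlg3 held 1 in the window from 100777021. GGGCGG occurs in 35.7% of the 32851 promoter windows of the same length, and these matches are descriptions, not sites. The other Dlg3 window held 1 TGACG, which 20.8% of all windows hold. None of the 4 windows held TATAAA, which 13.6% of all windows hold, TGACGTCA, which 1.79% hold, or the AP-1 motif TGANTCA, which 7.81% hold. The E-box CANNTG occurs in 72.3% of all windows, and was found in the Nrgn window and both Dlg3 windows but not in that of Camk2b. Camk2b's window was 77.3% G and C with 51 CG dinucleotides, Nrgn's 59.3% with 17, and Dlg3's 70.3% with 28 and 56.7% with 9, against medians of 52.7% and 7.0 over all windows.

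Midbrain and medulla were compared over all 32 arrays with limma, on log2 intensity after quantile normalization. A probe set is called where the p-value adjusted by Benjamini-Hochberg over all 22626 probe sets is under 0.05. In this comparison 5 of the 17 member probe sets were called, beside 21.5% of all probe sets. With the animal as a random block, since both regions came from each mouse, 7 of 17 and 6222 of all probe sets were called (4859 without it). Without the block, 4 of the 17 were higher in midbrain (10.5% of all probe sets were) and 1 was lower (10.9% of all). Counted by the brightest probe set of each gene, 4 of 9 genes were called, and no share over all genes in that unit is given. The median difference of the 17 was 0.12 on the log2 scale, and that of all probe sets was 0.01. The members' count is near that background and is no result about the genes as a group, so single genes are described in turn.

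Neurogranin showed the largest difference of the 17. Nrgn (1423231_at) read 78.5 at the lowest, 123 at the median and 149 at the highest over the 16 medulla arrays, and 495, 749.6 and 903 over the 16 midbrain arrays. Every midbrain array was above every medulla array. The difference was 2.43 on the log2 scale (SE 0.08, 95% interval 2.26 to 2.59, adjusted p = 9.54e-19, limma), a fold of 5.38 on the scale of intensity plus 16. That scale understates the change of dim genes. Its absolute difference was at percentile 99.9 of all probe sets. By animal, all 16 mice had more signal in midbrain, with differences from 1.71 to 2.98 and a median of 2.39.

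The Nrgn difference had the same direction in all 4 kinds of animal. In control sham mice the medulla arrays read 149, 106, 122 and 129, and the midbrain arrays 531, 495, 903 and 751. In control CCI mice they read 136, 112, 106 and 143 in medulla and 739, 565, 765 and 757 in midbrain. The control midbrain arrays thus spread from 495 to 903, and both extremes came from sham mice. In KO sham mice the medulla arrays read 119, 94.7, 127 and 127, and the midbrain arrays 674, 802, 811 and 771. In KO CCI mice they read 134, 78.5, 107 and 124 in medulla and 692, 648, 748 and 801 in midbrain. No group of 1 region overlapped any group of the other. The mean difference per animal, on the log2 scale, was 2.23 ± 0.44 in control sham, 2.37 ± 0.22 in control CCI, 2.55 ± 0.30 in the KO sham animals and 2.56 ± 0.25 in the KO CCI animals (SD, n = 4 each).

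Camk2b (1448676_at), the beta subunit of the kinase, was also higher in midbrain. It read 411, 462 and 608 over the medulla arrays (lowest, median, highest) and 569, 606 and 807 over the midbrain arrays. The ranges met only through control sham medulla 1, at 608, and KO sham medulla 3, at 584. The difference was 0.40 on the log2 scale (SE 0.05, 95% interval 0.30 to 0.51, adjusted p = 1.25e-06, limma), and 15 of 16 animals had more signal in midbrain. The exception, at -0.16, was the animal of KO sham medulla 3. In the KO sham group the mean difference per animal was 0.26 ± 0.28 (SD, n = 4), against 0.42 to 0.48 in the other 3 groups.

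Dlg3 (1416918_at), the X-linked guanylate kinase scaffold, was higher in midbrain too. It read 272, 315 and 409 over the medulla arrays and 395, 428 and 486 over the midbrain arrays. The single medulla array above the midbrain minimum was KO sham 3, at 409. The difference was 0.39 on the log2 scale (SE 0.05, 95% interval 0.29 to 0.48, adjusted p = 1.93e-07, limma), in the same direction in 16 of 16 animals.

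Ppp1r1b (1451331_at; chr11:98348406-98357796), the DARPP-32 gene, was the only member called lower in midbrain. It read 99.2, 139 and 199 over the medulla arrays and 74.04, 94.0 and 127 over the midbrain arrays. The ranges overlapped, with 11 of 16 midbrain arrays below every medulla array. The difference was -0.49 on the log2 scale (SE 0.08, 95% interval -0.65 to -0.33, adjusted p = 1.8e-05, limma), and 16 of 16 animals had less signal in midbrain. By group the mean difference per animal ran from -0.24 ± 0.11 in control sham to -0.74 ± 0.30 in KO sham mice (SD, n = 4 each).

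**Figure D1:**
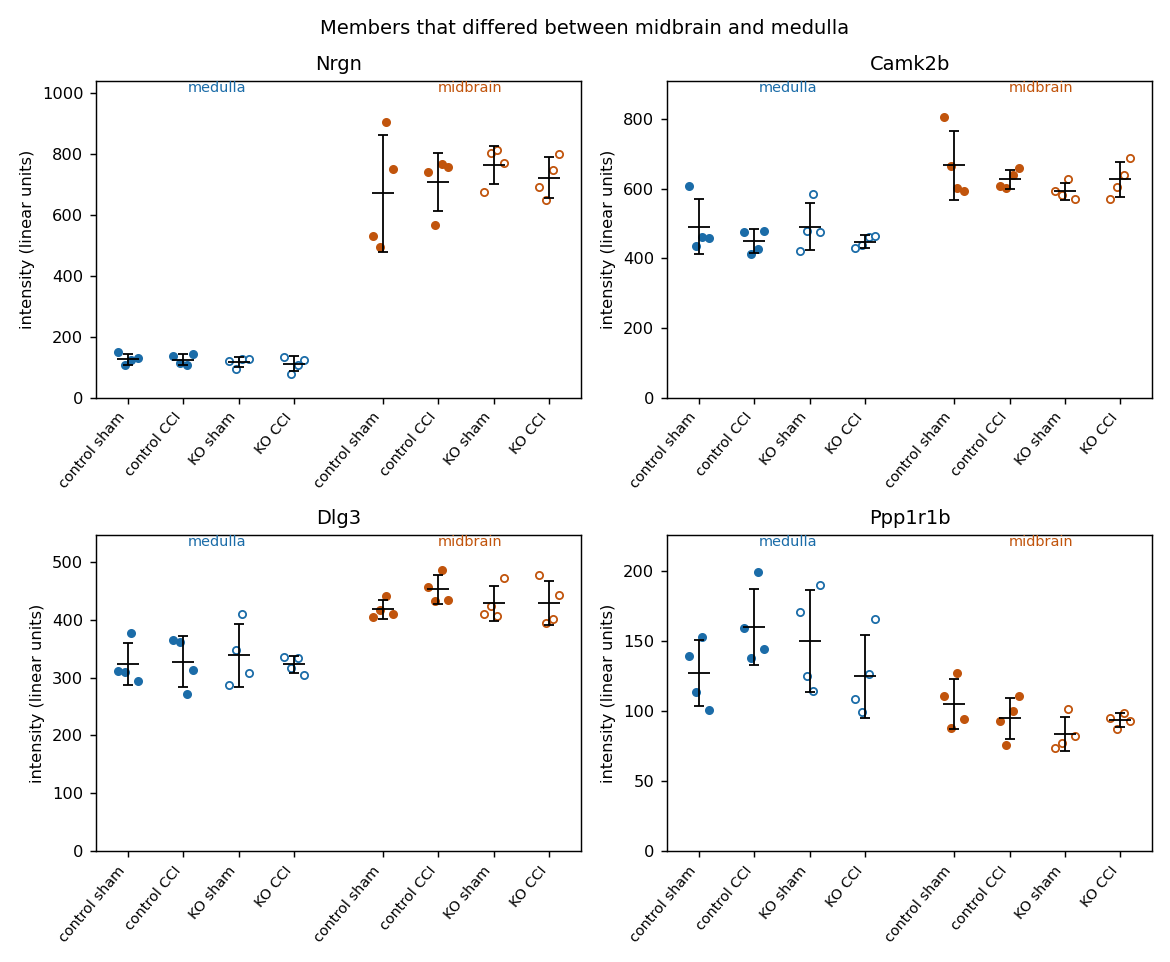
Intensity (linear units, from 0) of Nrgn, Camk2b, Dlg3 and Ppp1r1b on every array, by group, with medulla in blue and midbrain in orange. Filled points are control mice, open points KO mice, and bars give the group mean and SD (n = 4). Nrgn arrays lie between 78.5 and 149 in medulla and between 495 and 903 in midbrain, while the 4 groups of 1 region lie side by side.

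Calcineurin's subunit gene Ppp3ca (chr3:136669714-136937727) gave 1 call among 3 probe sets. Its probe set 1452056_s_at read 602, 653 and 748 over the medulla arrays and 644, 734 and 811 over the midbrain arrays, ranges that overlap widely. The difference was 0.14 on the log2 scale (SE 0.04, 95% interval 0.06 to 0.22, adjusted p = 0.0116, limma), and 13 of 16 animals had more signal in midbrain. The brightest probe set, 1426401_at, differed by 0.12 (95% interval 0.02 to 0.22, adjusted p = 0.0883, limma), and 1438478_a_at by 0.11 (adjusted p = 0.362). The 3 estimates lie within each other's intervals.

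The brightest Ppp3ca probe set was called under 3 of 46 alternatives. In KO sham medulla the 4 arrays read 1340.0, 1493, 2165 and 1334, while the other 12 medulla arrays lay between 1286 and 1527. Without KO sham medulla 3, at 2165, the region difference of 1426401_at was 0.16 with an adjusted p of 0.000794 (limma). With all 32 arrays kept, its adjusted p was 0.037 with the animal as a random block and 0.00521 with array weights. That array also had the highest summed cerebellar signal of the medulla arrays. It was the highest medulla array in 7 of the 17 member probe sets and the lowest in 3, and its median intensity, 91.6, was the lowest in medulla. Of the 10 cerebellar genes, 5 were lower in midbrain and 0 higher, and their summed intensity ran from 5469 to 13446 in medulla and from 4354 to 6219 in midbrain. None of the 10 was at 0 on any array. Over the 16 medulla arrays, after group means were removed, Ppp3ca correlated with the mean of the cerebellar list at 0.79, and at 0.44 without the 2 arrays farthest from the list's median. The corresponding medulla values were 0.66 and 0.435 for astrocyte and -0.44 and -0.66 for choroid plexus genes. Other medulla lists lay between -0.17 and 0.34 over all 16 arrays. In midbrain the values were -0.10 and -0.04 for cerebellar, 0.77 and 0.50 for cortical, and -0.32 and -0.52 for thalamic genes. The arrays share tissue dissections and normalization, and the part of cerebellar or other cell content in the Ppp3ca values was not tested.

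Dlg4, Homer1, Camk4 and Camk2a gave no call between regions, and 6 of their 10 probe sets had positive differences. Dlg4 (chr11:70017203-70045535), the gene of PSD-95, read 145, 186 and 223 in medulla and 148, 199.8 and 241 in midbrain by its brightest probe set, a difference of 0.11 (95% interval -0.01 to 0.23, adjusted p = 0.189, limma). Its other probe sets differed by 0.17 (adjusted p = 0.119) and 0.34 (adjusted p = 0.350). The lowest midbrain value, 148, came from KO sham midbrain 2, the array with the highest Actb ratio. On that array 1419581_at read 37.97, the lowest of all 32, and without it that probe set differed by 0.22 between regions (adjusted p = 0.00486, limma). With the animal as a random block over all 32 arrays its adjusted p was 0.0499. The part of RNA quality in these Dlg4 values was not tested.

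Homer1 (chr13:93303757-93405129) read 37.7, 59.2 and 82.5 in medulla and 36.8, 66.1 and 95.3 in midbrain by its brightest probe set, with a difference of 0.10 (95% interval -0.07 to 0.27, adjusted p = 0.448, limma). Its other 2 probe sets differed by -0.03 and -0.12, and 8 of 16 animals were higher in midbrain by the brightest. The sources used here do not say which Homer1 transcript each probe set reads. Camk4 was dim throughout: its brightest probe set read 18.4, 30.4 and 48.7 in medulla and 21.2, 37.3 and 67.3 in midbrain, a difference of 0.16 (95% interval -0.04 to 0.35, adjusted p = 0.270, limma). The Camk4 probe sets disagreed in sign, at -0.04 and -0.15 for the other 2. Camk2a, the alpha subunit of the kinase, has a single probe set that read between -7.58 and 20.8 over all 32 arrays, against array medians of 91.1 and above. Its difference was 0.19 (95% interval -0.03 to 0.41, adjusted p = 0.236, limma), and at this signal no level can be assigned in either region.

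**Figure D2:**
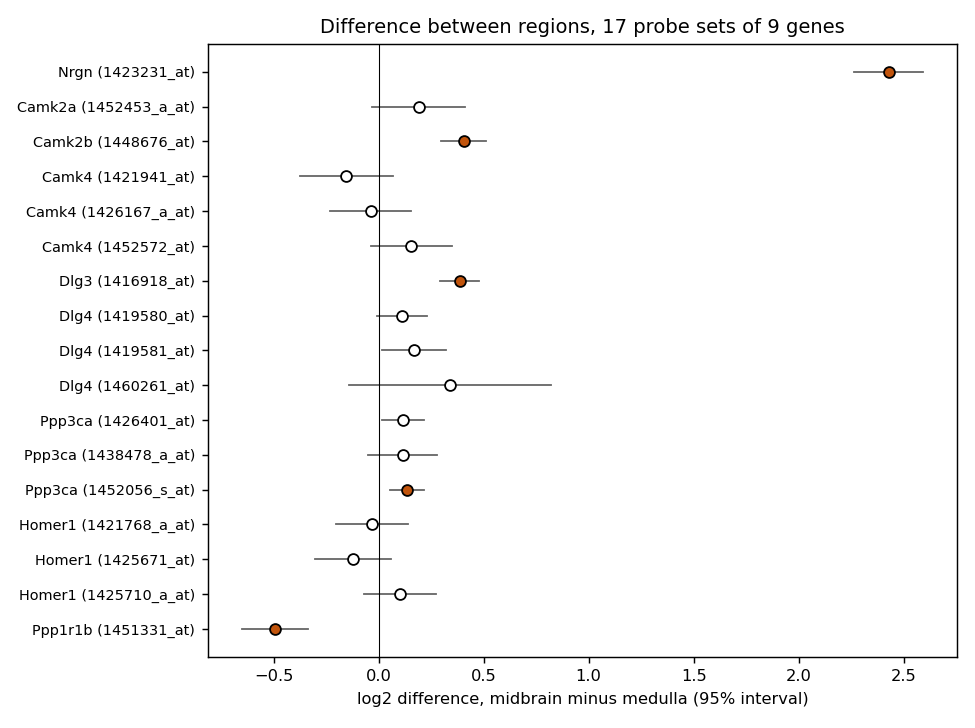
Difference between midbrain and medulla for the 17 probe sets of the 9 genes, on the log2 scale, with 95% intervals from limma over 32 arrays. Filled points passed an adjusted p of 0.05. Nrgn at 2.43 stands far from the rest, Camk2b and Dlg3 lie at 0.40 and 0.39, and Ppp1r1b at -0.49 is the only filled point below 0.

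The sample descriptions carry an array code, which may mark a batch. In each region 7 arrays carry a middle code, 8 carry the highest code, and control sham 1 alone carries the lowest. That animal, which had the smallest Nrgn difference (1.71), was left out of the fits within a code. Within the middle and the highest code, a choice made after seeing the data, the region difference of Nrgn was 2.38 and 2.52 on the log2 scale, that of Camk2b 0.46 and 0.37, that of Dlg3 0.38 and 0.40, and that of Ppp1r1b -0.49 and -0.50. All of these were called by limma within both codes. The Ppp3ca probe set 1452056_s_at was not, at 0.11 (adjusted p = 0.249) and 0.16 (adjusted p = 0.178). Within midbrain, Nrgn read 495, 661 and 802 on the 8 arrays of the lowest and middle codes and 748, 768 and 903 on the 8 of the highest code. Its difference between these sets of arrays, 0.28 on the log2 scale (SE 0.09, adjusted p = 0.172, limma), did not pass, where the code called 0.53% of all probe sets in midbrain and 0.663% in medulla. No member was called between codes in either region.

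Markers of forebrain neurons were examined beside Nrgn, because neurogranin and Camk2a are abundant in cortex and hippocampus. Of 11 measured genes of cortical and hippocampal projection neurons, 4 were higher in midbrain (Bcl11b by 0.94, Cck by 0.80, Cpne6 by 0.47 and Rprm by 0.45 on the log2 scale, adjusted p at most 6.2e-05, limma). Neurod2 was lower, by -0.49 (adjusted p = 0.000397, limma), and 6 were not called. Their summed intensity ran from 1662 to 1901 in medulla and from 2109 to 2814 in midbrain. The defining cortical factor Tbr1 had a median of 2.13 in midbrain and was at or below 0 on 5 of 16 arrays of each region, and Neurod6 had medians of 33.8 in medulla and 18.2 in midbrain. Within midbrain, with group means removed, Nrgn correlated with the mean of this list at 0.37 over 16 arrays, and at 0.30 without the 2 farthest. Of 7 thalamic genes 4 were higher in midbrain, led by Tcf7l2 (3.36, adjusted p = 1.1e-13, limma), which the dorsal midbrain also expresses. The thalamic sum ran from 3078 to 3515 in medulla and from 4194 to 5137 in midbrain, and no midbrain array had one of its genes at 0. Nrgn correlated with its mean at 0.53 in midbrain, and at 0.40 without the 2 farthest arrays. The corresponding values were 0.52 and 0.45 for the midbrain dopamine and collicular list, and 0.47 and 0.51 for the cerebellar list. They were 0.34 and 0.40 for striatal, 0.33 and 0.28 for choroid, 0.26 and 0.19 for astrocyte, -0.36 and 0.03 for oligodendrocyte and -0.37 and -0.33 for pan-neuronal genes. With the medullary and hindbrain list, whose sum ran from 1119.7 to 2644 in medulla and from 137 to 259 in midbrain, the midbrain values were -0.73 and -0.50. That list is near the floor in midbrain: the highest medians there were 69.2 for Hoxb4 and 21.1 for Hoxa5. Hoxb5 was at or below 0 on 8 of 16 midbrain arrays and Hoxb6 on 2. With 10 microglial genes, none of them called between regions, the midbrain values were -0.67 and -0.67. The part of these cell sources in the Nrgn difference was not tested.

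Within medulla, the Ppp1r1b values moved with choroid plexus genes, among other lists. Of 6 measured choroid genes, 5 were lower in midbrain and Otx2, also a midbrain gene, was higher by 1.2 (adjusted p = 1.63e-05, limma). Their summed intensity, most of it from the transthyretin gene Ttr, was 1022, 9112 and 10573 in medulla (lowest, median, highest) and 362, 1121 and 5385 in midbrain, and none was at 0 on any array. Within medulla, with group means removed, Ppp1r1b correlated with the list's mean at 0.76 over 16 arrays, and at 0.78 without the 2 farthest arrays, in RNA of the same dissections. In midbrain the value was 0.38, and 0.07 without the 2 farthest. The medulla arrays lowest in choroid genes, control sham 4 and KO CCI 1, read 101 and 109 for Ppp1r1b, near the bottom of the medulla range. With both left out, a choice made after seeing the data, the region difference of Ppp1r1b was -0.53 (adjusted p = 1.65e-05, limma). Ppp1r1b also correlated with the mean of 14 pan-neuronal genes at -0.87 in medulla (-0.84 without the 2 farthest) and -0.14 in midbrain, and 2 of those genes were higher and 4 lower in midbrain. The corresponding medulla pairs were 0.61 and 0.48 for dopamine and collicular and 0.50 and 0.12 for thalamic genes. They were -0.48 and -0.25 for hindbrain, -0.42 and -0.53 for oligodendrocyte and -0.25 and 0.17 for cerebellar genes. For striatal, microglial, astrocyte and cortical genes they were -0.19 and -0.11, -0.15 and -0.17, -0.13 and -0.11, and -0.005 and 0.13. Striatal neurons are the cells best known for DARPP-32: of 8 of their genes 5 were higher and 2 lower in midbrain, and their sum ran from 2543 to 3189 in medulla and from 2175 to 2976 in midbrain, with none at 0. Of 9 oligodendrocyte genes 7 were lower in midbrain, and of 10 astrocyte genes 7 were lower and 1 higher. The part of choroid, neuronal or glial content in the Ppp1r1b difference was not tested.

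**Figure D3:**
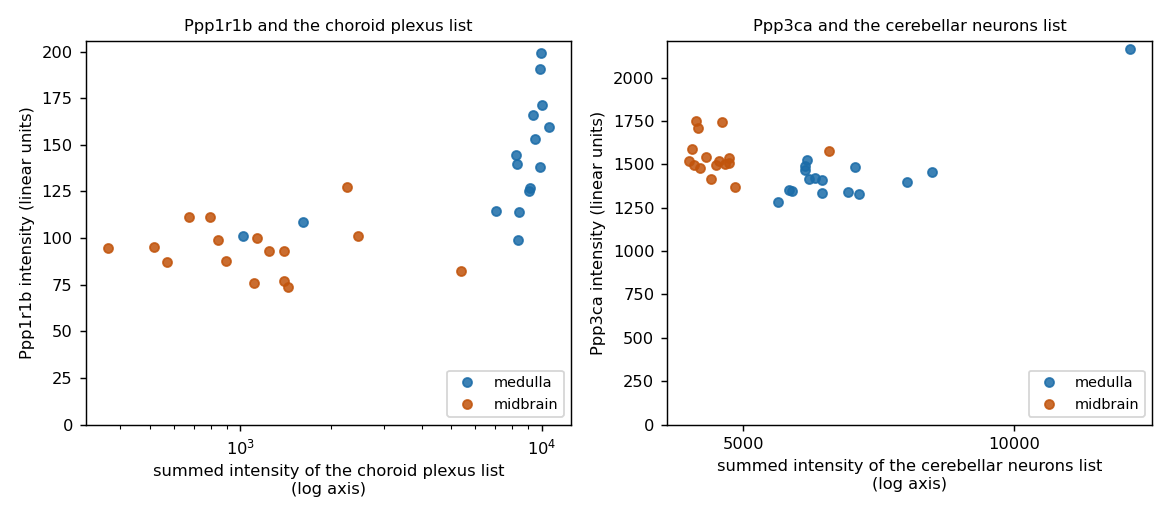
Intensity (linear units) against the summed intensity of a marker list (log axis) on each of 32 arrays, medulla in blue and midbrain in orange: Ppp1r1b against 6 choroid plexus genes on the left, Ppp3ca (brightest probe set) against 10 cerebellar genes on the right. The 2 medulla arrays with low choroid sums read 101 and 109 for Ppp1r1b, and 1 medulla array stands at 13446 and 2165 on the right.

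The genotype comparison gave no call for any member. In medulla, averaged over operation, 0 of 17 probe sets were called, beside 0.053% of all probe sets (0.0177% higher and 0.0354% lower in KO mice). In midbrain 0 of 17 were called, beside 0.0309% (0.00442% higher and 0.0265% lower). The corresponding backgrounds were 0.0133% in sham medulla, 0.00442% in CCI medulla, 0.0133% in sham midbrain and 0.00884% in CCI midbrain, and 0 of 17 members were called in each. At an unadjusted p under 0.05, 0 members passed in the averaged medulla comparison, where 761 of all probe sets did, and 2 in midbrain, where 1690 did. In the comparisons within 1 operation the counts of members were 1 in sham medulla (865 of all), 0 in CCI medulla (553), 3 in sham midbrain (1917) and 0 in CCI midbrain (1121). The median member difference was -0.03 in medulla and -0.02 in midbrain on the log2 scale.

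Intervals give the sizes of genotype difference that these arrays leave possible. For Nrgn, KO minus control was -0.12 in medulla (95% interval -0.35 to 0.11) and 0.13 in midbrain (-0.12 to 0.38), in log2 units. For Dlg3 it was 0.02 in medulla (-0.15 to 0.19) and -0.02 in midbrain (-0.13 to 0.09), and for Camk2b 0.00 (-0.18 to 0.17) and -0.08 (-0.23 to 0.06). The Dlg3 interval in midbrain was narrow, and those of Nrgn were wider. Ppp3ca by its brightest probe set gave 0.00 in medulla (-0.18 to 0.17) and -0.02 in midbrain (-0.14 to 0.09), Dlg4 gave -0.09 (-0.26 to 0.07) and 0.06 (-0.12 to 0.24), and Homer1 gave -0.05 (-0.33 to 0.22) and -0.20 (-0.42 to 0.02). For Ppp1r1b the values were -0.05 (-0.32 to 0.22) and -0.16 (-0.34 to 0.01). All of these intervals include 0, and none of them shows that the genotypes are equal.

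The lowest p-values of the genotype comparisons belonged to dim probe sets. Homer1 by 1425671_at read -1.43, 9.88, 1.52 and 2.06 in control sham midbrain and 11.5, 10.03, 12.2 and 21.6 in KO sham midbrain. The KO arrays were all above the control arrays, at intensities far below the array median. In CCI midbrain the control arrays read 2.70, 6.44, 1.69 and 4.23 and the KO arrays 4.78, 16.4, 6.72 and 6.53, and these ranges overlapped. The averaged midbrain difference was 0.44 on the log2 scale (SE 0.12, unadjusted p = 0.00195, adjusted p = 0.397, limma), which does not pass. The brightest Homer1 probe set leaned the other way, at -0.20.

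Camk4 by 1421941_at read 21.8, 20.8, 23.0 and 19.9 in control sham midbrain and 10.1, 19.1, 13.6 and 5.72 in KO sham midbrain. These 2 groups did not overlap, with means of 5.22 and 4.82 on the log2 scale. No member was called between genotypes in sham midbrain, where the lowest adjusted p of any member was 0.454 (limma). Averaged over operation, the difference of 1421941_at was -0.34 on the log2 scale, with an adjusted p of 0.596 (limma). The brightest Camk4 probe set gave 0.12 in the same comparison. In medulla 1421941_at read 17.2, 15.5, 22.6 and 9.31 in control sham and 21.3, 26.0, 40.5 and 25.6 in KO sham mice. The genotype by region interaction of 1421941_at was -0.60 (unadjusted p = 0.0093, adjusted p = 1, limma), which does not pass. No member was called in that interaction, where 0% of all probe sets were called and 861 had an unadjusted p under 0.05.

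Ppp1r1b in midbrain read 111, 87.8, 127 and 94.8 in control sham and 74.04, 77.01, 101 and 82.4 in KO sham mice. Most KO arrays lay below the control arrays, with overlap at 101. The difference was -0.27 on the log2 scale (95% interval -0.52 to -0.03, unadjusted p = 0.0323, adjusted p = 0.565, limma), which does not pass. Homer1 by 1421768_a_at read 44.6, 36.5, 36.4 and 41.1 in control sham medulla and 46.6, 47.5, 65.2 and 48.1 in KO sham medulla. The groups did not overlap, and the difference of 0.29 had an adjusted p of 0.996 (limma).

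Nerve injury gave no call in either region or genotype. In each of the 4 comparisons of CCI with sham, 0 of 17 members were called, beside 0% of all probe sets. Over all probe sets an unadjusted p under 0.05 was reached by 632 in control medulla, 962 in KO medulla, 681 in control midbrain and 1864 in KO midbrain. Among the members 1 reached it, the brightest Homer1 probe set in KO midbrain. It read 36.8, 42.1, 62.2 and 66.1 after sham operation and 76.0, 69.5, 56.7 and 77.9 after CCI, so the ranges overlapped in the middle. The difference was 0.34 on the log2 scale (95% interval 0.03 to 0.65, adjusted p = 0.600, limma), which does not pass. In control midbrain the same probe set read 56.2, 59.8, 75.1 and 58.5 after sham and 66.2, 70.7, 95.3 and 74.7 after CCI, a difference of 0.27 (95% interval -0.04 to 0.58). In medulla the Homer1 differences were 0.18 in control and 0.23 in KO mice, with intervals that include 0.

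The CCI intervals of neurogranin and the kinase genes all included 0. Nrgn differed by 0.09 in control midbrain (95% interval -0.26 to 0.44) and by -0.09 in KO midbrain (-0.44 to 0.26), in log2 units. In medulla the Nrgn values were -0.04 (-0.37 to 0.28) and -0.09 (-0.42 to 0.23). Camk2b differed by -0.10 in control midbrain (-0.31 to 0.10) and by 0.07 in KO midbrain (-0.13 to 0.28), and by -0.15 in medulla of both genotypes. Camk2a, near 0 in signal, gave the largest kinase estimate, -0.35 in control midbrain (-0.73 to 0.03), beside 0.15 in KO midbrain and -0.09 and -0.25 in control and KO medulla. The brightest Camk4 probe set gave -0.12 in control midbrain (-0.53 to 0.29), -0.26 in KO midbrain (-0.66 to 0.15), and -0.04 and 0.03 in control and KO medulla. The Camk2b group means were 491 ± 78.8 and 448 ± 34.2 in control sham and CCI medulla and 490.0 ± 67.7 and 448 ± 17.5 in the KO medulla groups (SD, n = 4). Each sham group holds 1 high array, at 608 and 584. Dlg3 differed by 0.08 in control midbrain (-0.07 to 0.24) and by 0.00 in KO midbrain (-0.15 to 0.15). The CCI differences of the brightest Dlg4 probe set lay between -0.09 and 0.10 in the 4 comparisons, and those of Ppp3ca between -0.22 and 0.01. The Ppp3ca extreme is in KO medulla, whose sham group holds the array at 2165.

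Whether genotype changed the response to injury was tested as an interaction in each region. In both, 0 of 17 members and 0% of all probe sets were called, while 601 probe sets in medulla and 1239 in midbrain had an unadjusted p under 0.05. Ppp1r1b gave the member with the lowest p in medulla. Its control medulla arrays read 139.8, 114, 153 and 101 after sham and 159, 138, 199 and 144 after CCI. Its KO medulla arrays read 171, 125, 115 and 191 after sham and 109, 99.2, 127 and 166 after CCI. Both pairs of groups overlapped, and their means differed in opposite directions, from 127 ± 23.6 to 160.3 ± 27.4 in control and from 150.4 ± 36.3 to 125 ± 29.5 in KO mice (SD, n = 4). The interaction was -0.55 on the log2 scale (95% interval -1.09 to -0.01, unadjusted p = 0.0467, adjusted p = 1, limma), which does not pass. The summed choroid intensity had means of 6816 ± 3902 in control sham, 9650.2 ± 1005 in control CCI, 9001 ± 1356 in KO sham and 7124 ± 3702 in KO CCI medulla (SD, n = 4). Each of the 2 lower means holds 1 low array, control sham 4 at 1022 and KO CCI 1 at 1608. No interaction estimate without these arrays is given. All 6 choroid genes had negative interaction estimates in medulla, and 0 were called. The pan-neuronal sum, with which Ppp1r1b correlated negatively in medulla, had means of 36321, 36260, 35671 and 36640 in the same order of groups. The part of choroid or neuronal content in the Ppp1r1b values was not tested. In midbrain 2 members had an unadjusted p under 0.05, a dim Dlg4 probe set (1460261_at) at 1.37 and Homer1 by 1421768_a_at at 0.58, neither of which passed the adjusted threshold. The Dlg4 probe set ran from -60.2 to 100.9 in KO sham midbrain (mean 28.3, SD 68.0, n = 4), and its lowest value was set to 0 before the fit. In control midbrain the Homer1 probe set read 43.9, 45.5, 58.0 and 44.9 after sham and 26.9, 42.6, 39.2 and 43.6 after CCI, and in KO midbrain 36.6, 18.4, 49.3 and 54.7 after sham and 67.6, 58.4, 44.7 and 51.6 after CCI. The control CCI arrays were all below the control sham arrays, while the KO groups overlapped. The value of 18.4 came from KO sham midbrain 2, the array with the highest Actb ratio, and no estimate without it is given. In midbrain the Ppp1r1b interaction was 0.22 (95% interval -0.13 to 0.57, adjusted p = 0.84, limma). The comparison of the CCI difference of control mice between regions gave 0 of 17 members and 0% of all probe sets called, with 410 probe sets and 0 members at an unadjusted p under 0.05.

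**Figure D4:**
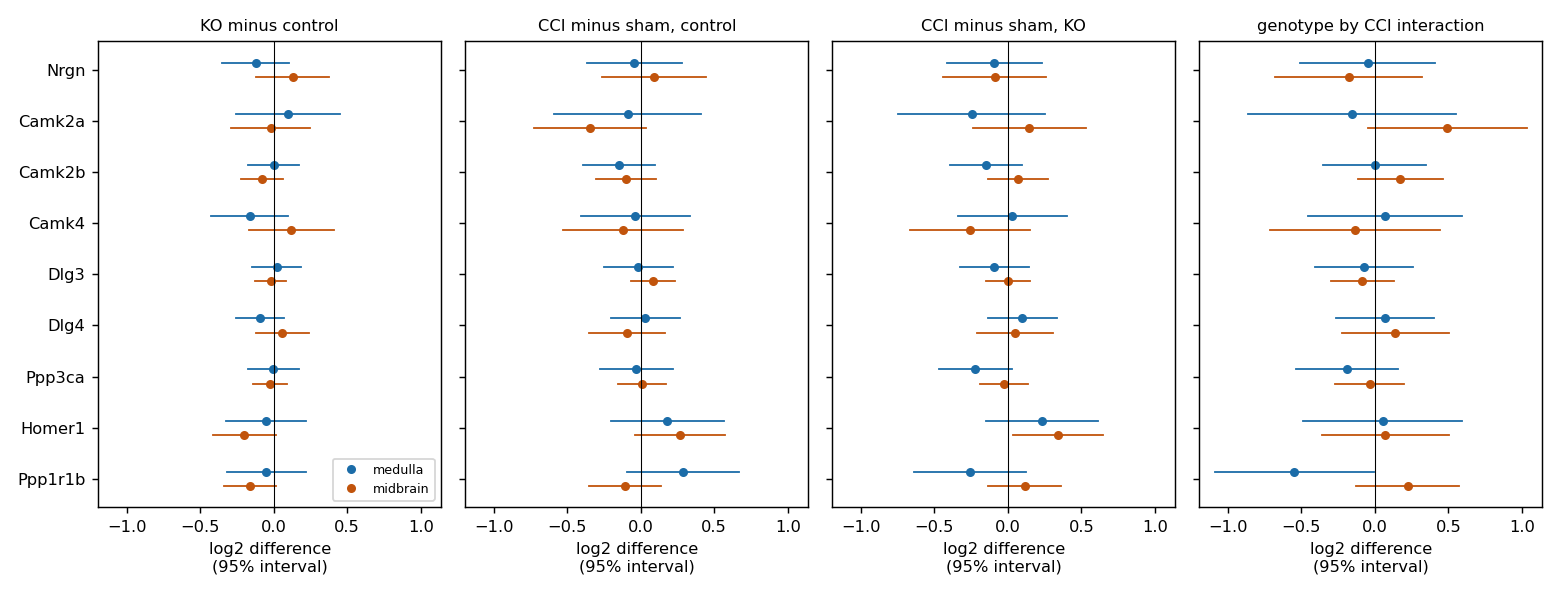
Differences on the log2 scale with 95% intervals from limma for the brightest probe set of each of the 9 genes: KO minus control averaged over operation, CCI minus sham in control mice, CCI minus sham in KO mice, and the genotype by CCI interaction, medulla in blue and midbrain in orange (16 arrays a region). No point passed an adjusted p of 0.05. The intervals that leave out 0 are those of the Ppp1r1b interaction in medulla, at -0.55, and of Homer1 after CCI in KO midbrain, at 0.34.

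The order of the 4 group means within a region changed from gene to gene. For Nrgn in midbrain it ran from control sham, at 670.2 ± 192, through control CCI and KO CCI to KO sham, at 764 ± 62.95 (SD, n = 4), and the extremes overlapped. For Nrgn in medulla it ran from KO CCI at 111 ± 24.3 to control sham at 126 ± 18.1, and again the extremes overlapped. The lowest and highest groups did not overlap for 1 of the 17 probe sets in medulla, beside 6.81% of all probe sets, and for 4 in midbrain, beside 11.7%. Of these 4, 3 read Homer1 and 1 reads Camk4 (1421941_at). By the brightest Homer1 probe set the extremes in midbrain were KO sham, with a mean of 51.8 ± 14.5, and control CCI, with 76.7 ± 12.9. Neighbouring Homer1 groups in that order did overlap. Ppp3ca in midbrain was the flattest, with means from 1526 ± 140.2 to 1566 ± 124.

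**Figure D5:**
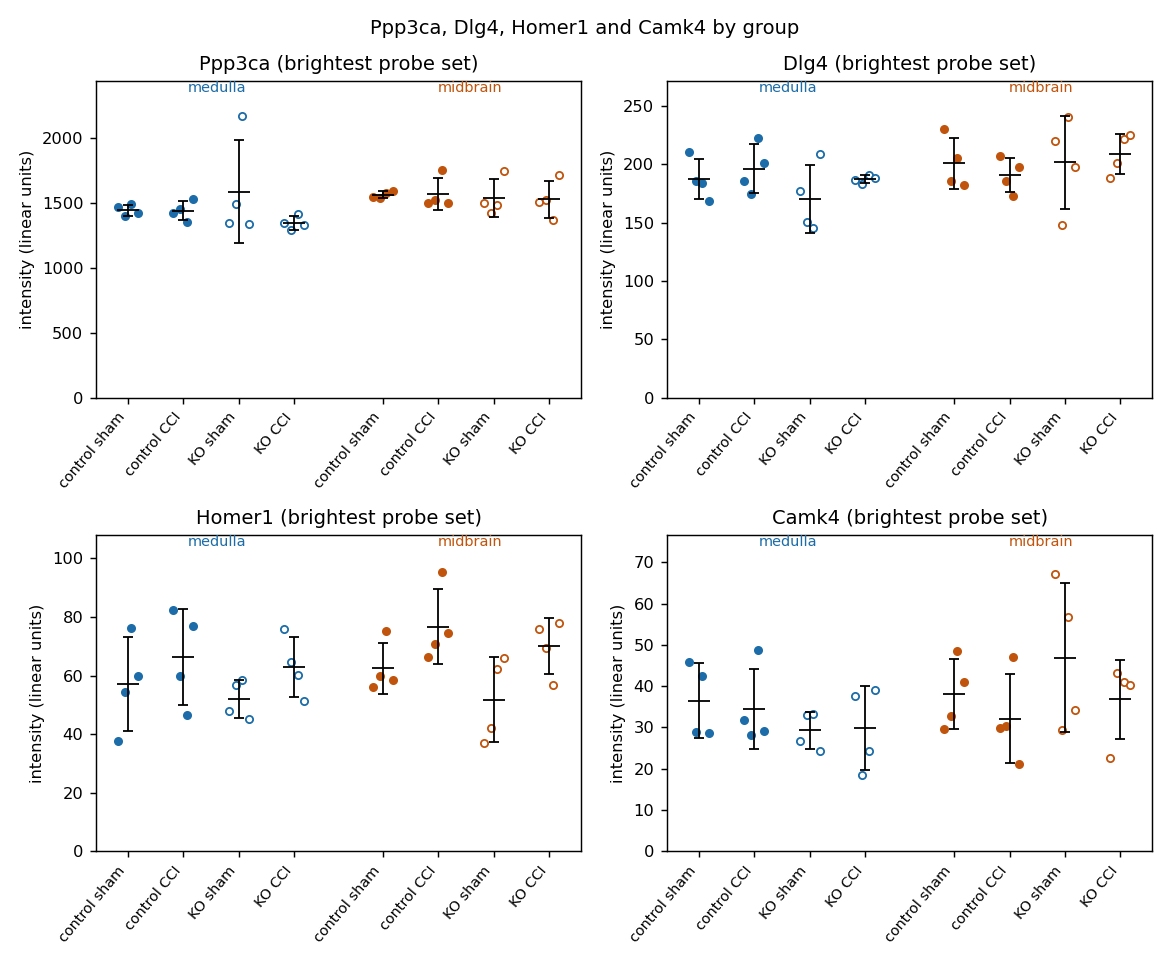
Intensity (linear units, from 0) of the brightest probe sets of Ppp3ca, Dlg4, Homer1 and Camk4 on every array, by group, medulla in blue and midbrain in orange, with group mean and SD (n = 4). Filled points are control mice and open points KO mice. For each gene the full ranges of the 2 regions overlap, while some single groups do not, such as Homer1 in KO sham and control CCI midbrain. The Ppp3ca array at 2165 is KO sham medulla 3.

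Most pairs of members were weakly correlated across arrays. With group means removed, the 36 pairs of brightest probe sets had a median correlation of 0.17 in medulla, from -0.65 to 0.76, and of 0.14 in midbrain, from -0.50 to 0.70, over 16 arrays each that share normalization and dissections. Dlg3 and Ppp3ca correlated at 0.71 in medulla and 0.55 in midbrain, while the scaffold genes Dlg3 and Dlg4 correlated at -0.60 and -0.50. The 2 brighter Dlg4 probe sets correlated with each other at 0.43 and 0.85, and the Ppp3ca probe sets 1426401_at and 1438478_a_at at 0.80 and 0.67. The called Ppp3ca probe set 1452056_s_at followed the brightest at only 0.33 in medulla and -0.08 in midbrain. All of these correlations keep every array. KO sham medulla 3 was the highest medulla array for both Dlg3, at 409, and Ppp3ca, at 2165. KO sham midbrain 2 gave the lowest midbrain Dlg4 value, 148. No correlation without these arrays is given, so their part in the values is not known.

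The genes most like each member were sought among 6820 genes with a mean intensity of at least 100, by correlation over 32 arrays after the mean of each region was subtracted. For Nrgn these were Phgdh and Txn2, both at 0.77, and Epn1 at 0.73. For Camk2b they were Prkar1b, a regulatory subunit of protein kinase A, at 0.89, Nrip2 at 0.81 and Slc27a1 at 0.77. For Ppp3ca they were Prkcb, a protein kinase C gene, at 0.83, Gpm6a at 0.83 and Itsn2 at 0.82. All 32 arrays were kept in this search, among them KO sham medulla 3, where Ppp3ca read 2165. The leading genes for Ppp1r1b were Spint2 and Fxyd1, at 0.79 each, and Igfbp2 at 0.74. Dlg3 was followed by Rbbp7, Aggf1 and Rreb1 at 0.78 each, Dlg4 by G6pc3 at 0.75, Sncg at 0.74 and Top3b at 0.73, and Homer1 by Ints14 at 0.75, Zfp90 at 0.69 and Ak5 at 0.69. Likeness was weaker for the dim members, with at most 0.57 for Camk4 (Pea15a) and 0.59 for Camk2a (Tspyl4).

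The wider postsynaptic machinery was read from 4 lists, of which 46 genes had a probe set of a single symbol. Between regions 21 of the 46 were higher in midbrain, 5 lower and 20 not called. Of all probe sets 10.5% were higher and 10.9% lower. The median of the 46 was 0.11 on the log2 scale, and that of all probe sets 0.01. The 46 are counted as genes, while the values for all are over single probe sets, dim ones included. The fit without the dimmest probe sets still called 4840, against 4859 with them, so the share called is higher among brighter probe sets. No share over all genes is given, so an excess of calls among the 46 cannot be read from these values. Of 9 calmodulin kinase and calmodulin-binding genes 4 were higher and 2 lower, of 13 scaffold genes 7 and 2, of 10 calcineurin and protein phosphatase 1 genes 3 and 1, and of 14 other kinase, cyclase, phosphodiesterase and Ras pathway genes 7 and 0. These are counts over genes measured on the same arrays, and no test of the lists was made. In the other comparisons 0 of the 46 were called.

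The largest of these differences were in Baiap2, a scaffold of the spine cytoskeleton, at 0.74, and Gap43, which shares neurogranin's calmodulin-binding motif but sits in axons, at 0.72. Pde2a, a phosphodiesterase, followed at 0.62, Cacng3, an auxiliary subunit of AMPA receptors, at 0.60, and Marcks, a calmodulin-binding substrate of protein kinase C, at 0.51. Lower in midbrain were Camk1d at -0.38, Cacng2 at -0.30, the calcineurin subunit Ppp3cb at -0.27, Homer3 at -0.27 and Camk1g at -0.18. All 10 passed an adjusted p of 0.05 (limma).

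Paralogues did not all follow the members. Camk2d differed by 0.16 (adjusted p = 0.328) and Camk2g by -0.11 (adjusted p = 0.240), while Camk2b was called at 0.40. Dlg1 was higher by 0.09 (adjusted p = 0.0465) and Dlg2 differed by 0.02 (adjusted p = 0.849), beside 0.39 for Dlg3. Homer2 was higher in midbrain by 0.35 (adjusted p = 1.5e-05) and Homer3 lower, while the brightest Homer1 probe set differed by 0.10. Among calcineurin subunits Ppp3cb was lower in midbrain (adjusted p = 0.000311) and Ppp3cc differed by 0.11 (adjusted p = 0.450), beside 0.12 for the brightest Ppp3ca probe set (all limma). Differences between paralogues were not themselves tested.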

How the data were processed

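Total RNA was extracted with TRIzol, and biotin-labelled cRNA was made from 4 ug of it, per the labels' protocols. The deposited table holds 1 intensity per probe set and array on a linear scale, with 2.15% of values at or below 0. The authors' software, scaling and annotation are not given in the sources used here. Of 22690 probe sets, 64 array controls were left out. Values below 0 were set to 0, 16 was added, log2 was taken and arrays were quantile normalized. No filter on dim probe sets was applied.

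limma 3.58.1 in R 4.3.3 was fitted over all 22626 probe sets, with 8 group means over 32 arrays for comparisons of regions and 4 group means over 16 arrays within a region, and p-values were adjusted by Benjamini-Hochberg. The fits were tested on simulated data first. Levels in the text are the deposited intensities. All member probe sets are named. Of the other postsynaptic genes, up to 5 per direction by absolute difference and the members' paralogues are named, and the 3 genes most like each member. Members and lists, the 11 marker lists included, were chosen with earlier results of these data known. Alternatives covered normalization, pseudocount, a brightness filter, variance settings, array weights, blocks, array codes and arrays left out. Array numbers limit the precision. Tables were made with pandas 2.3.3 in Python 3.11.15.

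Residuals of arrays with the same replicate number in the titles correlated at 0.04 on average in medulla (from -0.17 to 0.25) and 0.07 in midbrain (from -0.12 to 0.21), so the numbers were not taken to pair animals. Titles and array numbers disagree on how the regions pair for 2 KO sham mice. Differences by animal follow the array numbers. Symbols came from the platform annotation, updated through RefSeq.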

Additional observations from a re-analysis of the deposited data

Results flagged for a closer look

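In 7 of 136 groups of 4 arrays, 1 array lay far from the other 3 relative to the group's range, and chance gives about 1 in 20. For Nrgn, control CCI midbrain 2 read 565, below the others at 739 to 765. For Camk2b, control sham medulla 1 read 608, above the others at 436 to 461. Ppp3ca by 1426401_at read 1751 on control CCI midbrain 3, above 1494 to 1519 on the rest of its group. The other 4 were in dim probe sets. Camk4 by 1452572_at read 22.6 on KO CCI midbrain 1, below 40.4 to 43.2. Homer1 by 1421768_a_at read 65.2 on KO sham medulla 3, above 46.6 to 48.1, and 58.0 on control sham midbrain 3, above 43.9 to 45.5. Homer1 by 1425671_at read 16.4 on KO CCI midbrain 2, above 4.78 to 6.72.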

How the results depend on the processing

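Between regions, Nrgn, Camk2b, Dlg3 and Ppp1r1b were called under all 46 alternatives, with log2 differences of 2.08 to 2.57, 0.37 to 0.46, 0.34 to 0.41 and -0.56 to -0.36. The Ppp3ca probe set 1452056_s_at was called under 44 of 46, and was lost within each array code. The count of 5 called probe sets became 9 with array weights, 8 without KO sham midbrain 2 and 4, 7 with the animal as a random block, 4 within each of 2 array codes, and 5 to 6 when 1 array was left out. The animal block added Dlg4 1419581_at and Ppp3ca 1426401_at. Array weights added Camk4 1452572_at, Dlg4 1419580_at and 1419581_at, and Ppp3ca 1426401_at, while leaving out the 2 midbrain arrays added the 3 Dlg4 probe sets. With the replicate number as a block the count was 5, and 0 in each of the other 14 comparisons. Over all probe sets the region count of 4859 became 1668 and 2218 within the middle and the highest array code, which hold fewer arrays. The genotype count in midbrain, 7 over all probe sets, ran from 0 to 63, and that in medulla, 12, from 0 to 16. Of 8089 member values under alternatives, 2 lost a call and 11 gained one. No value that was called in the main fit or in the alternative changed sign. Changes of sign among values called in neither were not counted. Dim signal limits Camk2a, Camk4 and the dim Homer1 and Dlg4 probe sets.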
